A study of Mus musculus with 21 samples.

Results

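The transforming growth factor beta (TGF-β) system of conventional dendritic cells (cDCs) was followed through 10 genes. They were the ligand genes Tgfb1, Tgfb2 and Tgfb3, the receptor genes Tgfbr1 and Tgfbr2, the signal transducers Smad2, Smad3 and Smad4, and the inhibitors Smad7 and Tgif1. The genes were picked by name from the pathway, with earlier results of these data known, and make up 10 of the 37734 genes counted. All 10 reached a normalized read count of at least 10 in at least 3 samples and so were among the 14970 genes tested.

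The cells came from the spleen and thymus of wild-type C57BL/6 mice aged 6 to 8 weeks, and tissues of several mice were pooled for a sort. After enrichment on CD11c beads, cDC1 were sorted as CD11c+ CD24+ cells negative for CD11b, B220, F4/80, Ly6g, Ly6c and DX5, and cDC2 as CD11c+ CD11b+ cells negative for CD24 and B220. In the thymus each subset was divided into immature CCR7- Esam- and mature CCR7+ Esam+ cells, and in the spleen only immature CCR7- Esam- cells were taken. Among the 6 groups, the immature cDC1 of spleen and of thymus had 4 samples each, and mature thymic cDC1 and all 3 groups of cDC2 had 3 samples each. There was no mature splenic group.

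TGF-β is secreted in a latent form and has to be released before it can bind its receptors. The active ligand brings the type II receptor Tgfbr2 together with the type I receptor Tgfbr1, which phosphorylates Smad2 and Smad3. These join Smad4 and act on genes in the nucleus, where Tgif1 can act as a corepressor, while Smad7 blocks the type I receptor and is itself induced by the pathway. In dendritic cells TGF-β is known for restraining activation, and it is a signal by which these cells promote regulatory T cells.

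The libraries held 14266867 to 40119669 reads on genes. Replicates 4 and 5 of immature splenic cDC1 shared the number in their label, the index and the lane. They differed far less than any other pair of that group (chi-square over degrees of freedom 2.444, where the other 9 pairs had 24.99 to 176.4), so they were averaged and counted as 1 sample. Replicate 1 of that group had the same label number but was on lane 5, and it was kept as its own sample. Replicates 3 and 4 of immature thymic cDC1 also shared label number, index and lane. They differed more than any other pair of their group (92.77), so they were kept as 2 samples. The marker genes matched the group labels for maturation state and, in immature cells, for subset. In mature cells the subset markers lay closer together. Summed over Xcr1, Clec9a, Batf3, Irf8 and Cadm1, the cDC1 list reached 78000.0 to 91760.0 in immature cDC1 and 2818 to 4785 in immature cDC2, and the mature list of Ccr7, Fscn1, Cd83 and Ccl22 reached 375400.0 to 558600.0 in mature cells and 15750.0 to 50500.0 in immature cells. In mature cells the cDC1 list was at 40300.0 to 43790.0 in cDC1 and 14300.0 to 22310.0 in cDC2, and the cDC2 list of Sirpa, Irf4, Itgam, Cd209a and Clec4a4 reached 39970.0 to 46200.0 in immature and 13910.0 to 17550.0 in mature cDC2, against 324.6 to 3605 in cDC1. Within every mature cDC2 sample the cDC1 list exceeded the cDC2 list, at 18820 against 16110, 22310 against 17550 and 14300 against 13910. Mature cells of both subsets were sequenced only on lane 8, while the other 4 groups were spread over lanes 5 and 8, so values from lane 8 alone are given beside the main results. Splenic cDC2 had 1 library on lane 8, their replicate 3, so every lane 8 value that involves splenic cDC2 rests on that sample, which was assumed to vary like the other groups.

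Smad3, Tgfb1 and Tgfbr2 carried large differences in these data, so the DNA just before their annotated starts is shown. The RefSeq promoter table for GRCm38.p6 held 6 of the 10 genes, and Tgfb3, Smad2, Smad4 and Smad7 had no entry. Each sequence gives the 250 bases upstream of the start on the strand of the gene, 5′ to 3′. Capitals mark the letters CAGAC (a SMAD box), TGANTCA (an AP-1 site), GGGA and CC with any 4 bases between (a form of the NF-κB site), GAGGAA (a core of the PU.1 site) and GGCGGG (a GC box), searched on both strands.
Smad3, chr9:63757995-63758244, minus strand: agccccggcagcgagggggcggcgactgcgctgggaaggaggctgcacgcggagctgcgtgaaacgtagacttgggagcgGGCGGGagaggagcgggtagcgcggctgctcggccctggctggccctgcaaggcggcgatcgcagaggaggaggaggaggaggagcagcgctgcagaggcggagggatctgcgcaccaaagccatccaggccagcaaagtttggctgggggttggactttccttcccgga
Tgfb1, chr7:25686752-25687001, plus strand: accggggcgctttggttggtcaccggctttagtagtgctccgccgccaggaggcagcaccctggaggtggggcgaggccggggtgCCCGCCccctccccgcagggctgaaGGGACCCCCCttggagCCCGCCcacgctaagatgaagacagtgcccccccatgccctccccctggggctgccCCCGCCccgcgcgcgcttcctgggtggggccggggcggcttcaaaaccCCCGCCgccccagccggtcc
Tgfbr2, chr9:116175364-116175613, minus strand: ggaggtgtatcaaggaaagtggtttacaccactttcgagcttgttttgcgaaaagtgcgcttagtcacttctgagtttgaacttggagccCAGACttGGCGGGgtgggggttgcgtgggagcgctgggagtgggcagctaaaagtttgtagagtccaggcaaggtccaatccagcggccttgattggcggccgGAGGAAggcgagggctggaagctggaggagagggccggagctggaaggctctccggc

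The window of Tgfbr2 held 1 SMAD box, 1 PU.1 core and 1 GC box, and that of Tgfb1 held 1 NF-κB match and 4 GC boxes. The Smad3 window held 1 GC box and none of the other 4 patterns. Among 32851 promoter windows of the same length, 42.2% held the SMAD box, 6.75% the AP-1 site, 17.6% the NF-κB form, 23.3% the PU.1 core and 32.5% the GC box. All 3 windows were richer in G and C than the median window at 52.4%, with 69.2% for Smad3, 75.2% for Tgfb1 and 58.4% for Tgfbr2. A match of letters is only a description and does not show that a factor bound there.

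Levels can be compared between genes only per length, so the normalized read count was divided by the exon length of each gene in kilobases. Tgfb1 was by far the most abundant ligand gene, with group means of 125.7 to 1477 per kilobase, while Tgfb2 stayed between 0.4315 and 5.264 and Tgfb3 between 0.9739 and 7.218. Of the receptors, Tgfbr1 was above Tgfbr2 in 4 groups and below it only in immature cDC1 and cDC2 of the spleen, where Tgfbr2 reached 212.5 and 332.3 per kilobase and Tgfbr1 153.1 and 244.2. Smad3 was lower per kilobase than Smad2 and Smad4 in all 6 groups, and its lowest mean was 12.15 in immature thymic cDC1. Between groups, the mean log2 value ranged over 4.28 for Tgfbr2, 3.59 for Tgfb2, 3.49 for Tgfb1 and 3.21 for Smad3, against 0.22 for Smad2 and 0.52 for Smad4.

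**Figure D1:**
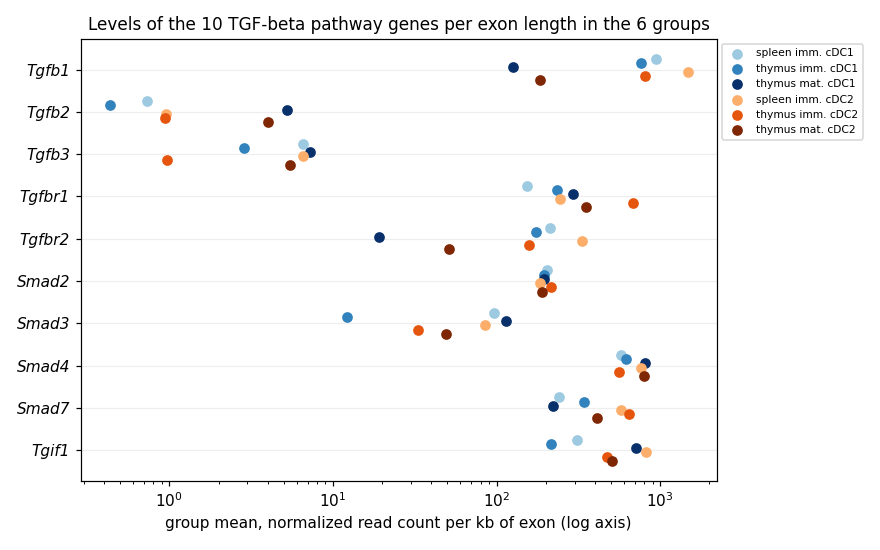
Group means of the normalized read count per kilobase of exon for the 10 genes in the 6 groups, on a log axis. Tgfb1 lies far above Tgfb2 and Tgfb3 in every group, and Smad3 has its lowest mean, 12.15, in immature thymic cDC1.

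Across maturation in the thymus the ligand gene Tgfb1 and the receptor gene Tgfbr2 fell in both subsets. The differences of Smad3 and Tgif1 were larger in cDC1 than in cDC2 by a test of the contrast between the subsets itself. Tgfb2 and Tgfb3 also passed as higher in both, but at low counts. Tgfb2 reached a count of 10 almost only in mature samples, so its rise was in part built into the choice of genes tested. Its cDC2 call was lost without immature replicate 3, and the Tgfb3 call in cDC1 was lost on lane 8 alone. Both genes are among those counted as risen below. In cDC1, 5 of the 10 genes rose and 3 fell, against a background of 30.4% of all genes tested that rose and 33.7% that fell. In cDC2, 4 rose and 4 fell, against 27.7% and 25.5%. A gene was called changed at a limma adjusted p below 0.1, and fold changes are on the scale of log2(normalized read count + 1). The median log2 fold change of the 10 genes was 0.36 in cDC1 and -0.05 in cDC2, against -0.04 and 0.04 over all genes tested. On lane 8 alone 7 genes changed in each subset, and without replicate 3 of mature cDC2 the cDC2 count was again 8, with Smad4 lost and Smad2 gained. In these bulk libraries, fewer cells that carry a transcript and less of it per cell cannot be told apart.

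Between tissues, immature thymic cDCs had less Smad3, Tgfb3 and Tgif1 and more Tgfbr1 than immature splenic cDCs of the same subset. In cDC1 the calls for Tgfb3, Tgfbr1 and Tgif1 were each lost under some other settings, and the Tgfb3 and Tgfbr1 samples overlapped. In cDC1, 2 genes were higher and 3 lower in the thymus, against 7.72% and 7.7% of all genes tested. In cDC2, 1 was higher and 6 were lower, against 14.9% and 11.6%. The median of the 10 genes was -0.28 in cDC1 and -0.69 in cDC2, and that of all genes 0.0 and 0.02. The maturation and the tissue comparisons share the immature thymic samples, so a low value in those samples moves both. On lane 8 alone 2 genes differed between tissues in cDC1, Smad3 and Tgfbr1, and 5 in cDC2, Tgfb1, Tgfb3, Tgfbr1, Smad3 and Tgif1, the latter against 1 splenic library.

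**Figure D2:**
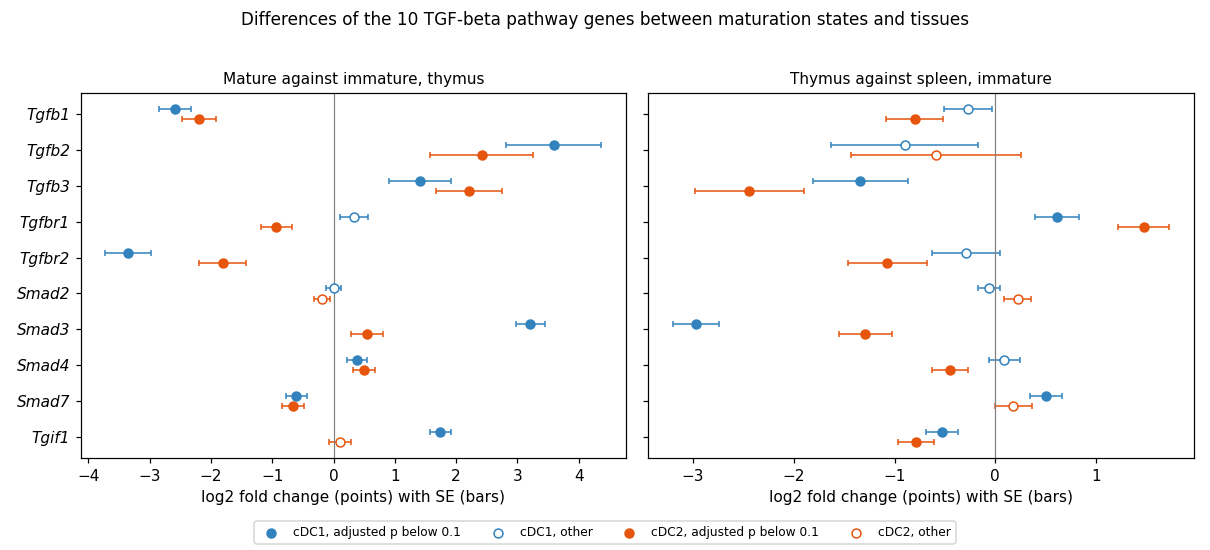
Log2 fold changes of the 10 genes with their standard errors, for mature against immature thymic cells on the left and for thymic against splenic immature cells on the right, with cDC1 in blue, cDC2 in orange and filled points for an adjusted p below 0.1. Smad3 lies at 3.21 for maturation and -2.97 for tissue in cDC1, and both panels use the same immature thymic samples.

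Tgfb1 (ENSMUSG00000002603, mm10 chromosome 7, 25687002 to 25705077, plus strand) encodes the main TGF-β of immune cells. Its normalized read counts were 4097, 3824, 4458 and 2962 in immature thymic cDC1 and 612.0, 625.6 and 663.6 in mature thymic cDC1. In cDC2 they were 4395, 3691 and 4198 in immature and 1149, 1059 and 591.0 in mature thymic cells. The mature samples lay below every immature sample of both subsets. Tgfb1 fell by 2.58 on the log2 scale in cDC1 (SE 0.26, limma adjusted p = 3.77e-08), a 5.98-fold difference, and by 2.19 in cDC2 (SE 0.28, limma adjusted p = 1.75e-06), a 4.554-fold difference. On lane 8 alone the log2 values were -2.54 and -2.13, and without replicate 3 of mature cDC2, the lowest of that group, the cDC2 value was -1.89.

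In the spleen Tgfb1 was at 3462, 4379, 7319 and 3932 in cDC1 and at 6425, 5237 and 10680 in cDC2. Thymic cDC2 were below all 3 splenic cDC2 samples (log2 fold change -0.8, SE 0.28, limma adjusted p = 0.0469). On lane 8 alone the value was -1.44, against splenic replicate 3 only, which had the highest count of 10680, and the call was lost without splenic replicate 3 (-0.51, limma adjusted p = 0.268) and without thymic replicate 2 or 3 (limma adjusted p = 0.135 and 0.102). In cDC1 the 2 tissues overlapped (-0.27, limma adjusted p = 0.608). The splenic cDC2 mean of 7447 ± 2861 (SD, n = 3) was the highest of the 6 groups and the mature cDC1 mean of 633.8 ± 26.75 (SD, n = 3) the lowest.

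Tgfb2 (ENSMUSG00000039239, chromosome 1, 186622792 to 186705989, minus strand) was close to its detection limit. It was listed at 7.603, 0.8329, 1.56 and 0 in immature thymic cDC1 and at 20.28, 31.19 and 39.98 in mature thymic cDC1. In cDC2 it was at 11.74, 4.687 and 0 in immature and 24.57, 11.83 and 32.96 in mature cells. The mature samples lay above the immature samples in both subsets, by a margin of under 0.1 in cDC2. The log2 fold change was 3.59 in cDC1 (SE 0.78, limma adjusted p = 5.31e-04) and 2.42 in cDC2 (SE 0.84, limma adjusted p = 0.0222), and these became 1.89 and 1.24 with a pseudocount of 8. The gene passed the limit on low values almost entirely through the mature samples, and the cDC2 call was lost without immature replicate 3 (1.39, limma adjusted p = 0.18). In the spleen Tgfb2 stayed at or below 7.206, and neither tissue comparison passed (limma adjusted p = 0.555 and 0.685).

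Tgfb3 (ENSMUSG00000021253, chromosome 12, 86056745 to 86079041, minus strand) was also low. In immature thymic cDC2 it was at 3.202, 2.009 and 4.673, which was 3 reads in each library, against 16.12, 22.97 and 16.48 in mature cDC2 and 20.13, 16.87 and 29.33 in splenic cDC2. Immature thymic cDC2 thus lay below both other cDC2 groups with no overlap. The rise with maturation was 2.21 on the log2 scale (SE 0.54, limma adjusted p = 0.00203) and the difference between thymus and spleen -2.44 (SE 0.54, limma adjusted p = 0.00262). With a pseudocount of 8 these values were 1.23 and -1.4. On the other strand, Tgfb2 overlaps the annotated gene Gm29491 (2.14% of its exon bases). Tgfb3 overlaps Gm37804 (4.82%) and Gm48008 (7.6%) there. The strand setting of the read counting was not given in the sources used here.

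In cDC1 Tgfb3 was at 5.913, 12.49, 17.16 and 3.032 in immature thymic, 14.75, 32.93 and 25.59 in mature thymic and 24.71, 22.68, 25.86 and 16.03 in splenic cells. The immature thymic samples overlapped both other groups. The rise with maturation passed the test (1.41, SE 0.51, limma adjusted p = 0.0215) but not on lane 8 alone (1.28, limma adjusted p = 0.117), nor in a fit to these 2 groups alone (limma adjusted p = 0.108). The lower level in the thymus than in the spleen (-1.34, SE 0.47, limma adjusted p = 0.0711) did not pass in edgeR (adjusted p = 0.158), nor with 1 sample per group and label number (-1.24, limma adjusted p = 0.126), nor without splenic replicate 1, 2 or 3 or thymic replicate 1 or 4 (limma adjusted p = 0.138 to 0.237). The 2 values became 0.91 and -0.84 with a pseudocount of 8.

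**Figure D3:**
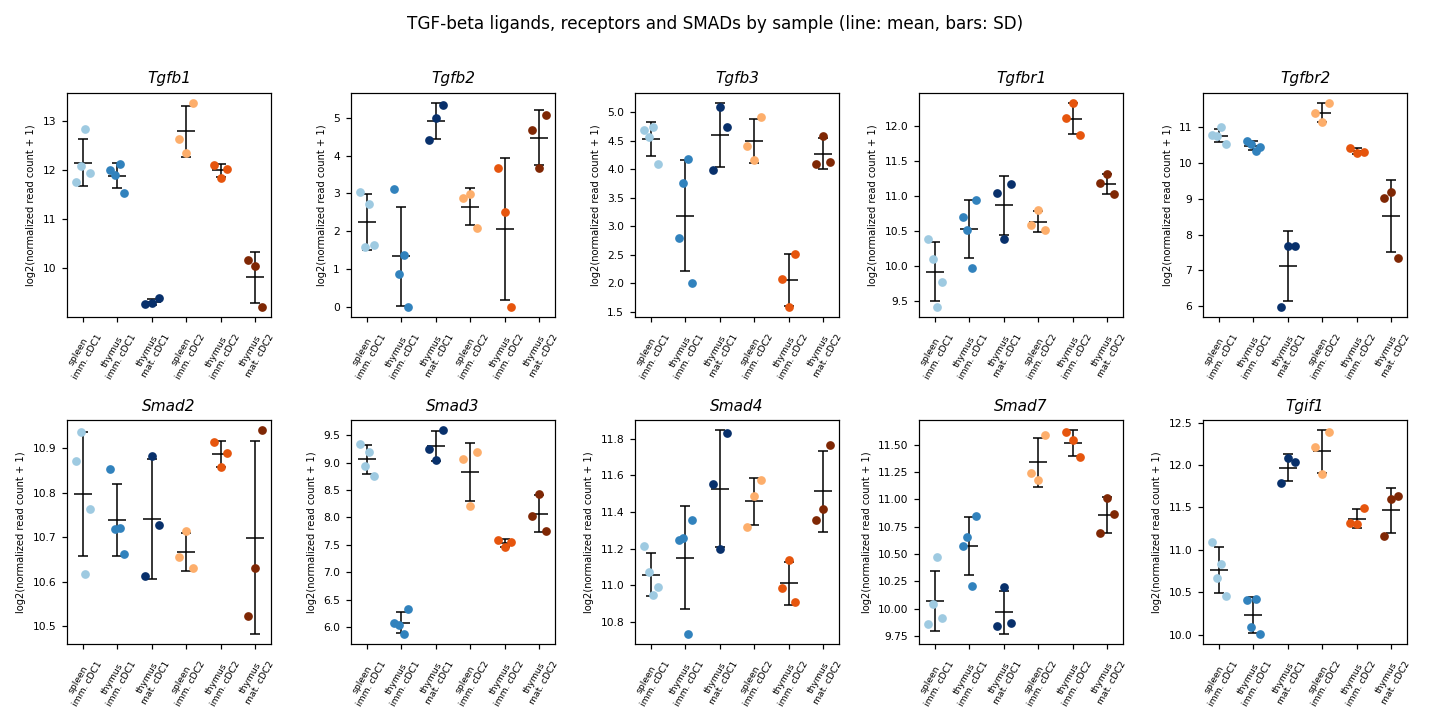
Log2(normalized read count + 1) of the 10 genes in every sample, 1 point each, with the mean as a line and the SD as bars, for the 6 groups. The 4 Smad3 points of immature thymic cDC1 (57.74 to 79.83 as counts) lie below all other samples, and both mature groups lie below every immature group for Tgfb1 and Tgfbr2.

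The receptor gene Tgfbr2 (ENSMUSG00000032440, chromosome 9, 116084293 to 116175360, minus strand), which binds the ligand first, had the widest range of the 10 genes. It was at 1553, 1468, 1276 and 1384 in immature thymic cDC1 and at 62.68, 206.2 and 202.3 in mature thymic cDC1. The cDC2 values were 1363, 1241 and 1249 before and 517.4, 577.7 and 162.5 after maturation. No mature sample reached an immature one. Tgfbr2 fell by 3.35 in cDC1 (SE 0.37, limma adjusted p = 1.34e-07), a 10.2-fold difference, and by 1.81 in cDC2 (SE 0.39, limma adjusted p = 7.41e-04). The log2 values from lane 8 alone were -3.31 and -1.77. Without mature cDC2 replicate 3, the lowest in its group, the cDC2 value was -1.23 (limma adjusted p = 0.00605).

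Splenic Tgfbr2 was at 1746, 1721, 2024 and 1468 in cDC1 and 2650, 2257 and 3256 in cDC2. The splenic cDC2 samples lay above all samples of the other 5 groups. Against them immature thymic cDC2 differed by -1.07 (SE 0.39, limma adjusted p = 0.0618), a call that did not hold on lane 8 alone (limma adjusted p = 0.261), nor without splenic replicate 1 or 3 or any single thymic cDC2 replicate (limma adjusted p = 0.104 to 0.193). Splenic cDC2 and cDC1 differed by 0.64 (limma adjusted p = 0.251), although their samples did not overlap, and a fit to these 2 groups alone gave a limma adjusted p of 0.0253.

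Tgfbr1 (ENSMUSG00000007613, chromosome 4, 47353222 to 47414931, plus strand), the kinase that activates Smad2 and Smad3, followed a different order. Immature thymic cDC2 were highest at 4416, 5122 and 3751, with no overlap with the 2322, 2533 and 2087 of mature thymic or the 1534, 1787 and 1467 of splenic cDC2. Tgfbr1 fell with maturation in cDC2 by 0.93 (SE 0.25, limma adjusted p = 0.00433) and was higher in the thymus than in the spleen by 1.47 (SE 0.25, limma adjusted p = 2.20e-04). Lane 8 alone gave -0.93 and, against 1 splenic library, 1.58.

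In cDC1 Tgfbr1 was at 1341, 1102, 686.2 and 872.1 in splenic, 1656, 1467, 1006 and 1960 in immature thymic and 2098, 1334 and 2311 in mature thymic cells. Each of these groups overlapped the next. The maturation value of 0.33 did not pass (limma adjusted p = 0.234), although it did without mature replicate 2 (0.57, limma adjusted p = 0.0551). The higher level in the thymus (0.61, SE 0.22, limma adjusted p = 0.0764) was lost without splenic replicate 3 or 4 or thymic replicate 1, 2 or 4 (limma adjusted p = 0.136 to 0.235).

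Smad3 (ENSMUSG00000032402, chromosome 9, 63646767 to 63757994, minus strand), a transducer that binds DNA at the SMAD box, was lowest in immature thymic cDC1. Its normalized read counts there were 66.74, 64.96, 57.74 and 79.83, against 608.3, 528.6 and 770.0 in mature thymic cDC1 and 645.5, 488.2, 585.5 and 431.9 in splenic cDC1. The mature thymic and the splenic values overlapped each other and neither overlapped those of immature thymic cDC1. Smad3 rose with maturation by 3.21 (SE 0.24, limma adjusted p = 5.44e-10), a 9.267-fold difference, and was 7.844-fold lower in immature thymic than in splenic cDC1 (log2 fold change -2.97, SE 0.23, limma adjusted p = 1.05e-08). Lane 8 alone gave 3.21 and -2.89.

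In cDC2 the same gene was at 191.1, 174.1 and 186.9 in immature thymic, 258.0, 345.2 and 215.1 in mature thymic and 535.4, 295.5 and 583.4 in splenic cells. Again the immature thymic samples were lowest with no overlap, but the distances were smaller. The thymus was below the spleen by 1.29 (SE 0.26, limma adjusted p = 0.00114), a 2.45-fold difference. The rise with maturation of 0.54 (SE 0.26, limma adjusted p = 0.0977) was at the threshold. It was lost on lane 8 alone (0.57, limma adjusted p = 0.15), with a lane term (limma adjusted p = 0.129), with no limit on low values (limma adjusted p = 0.119) and without any single immature replicate or mature replicate 1 or 2 (limma adjusted p = 0.141 to 0.346). A random replicate block by label number lost it too (limma adjusted p = 0.116). It held with a pseudocount of 8 (0.52, limma adjusted p = 0.0938) and without mature cDC2 replicate 3 (0.7, limma adjusted p = 0.056).

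Smad2 (ENSMUSG00000024563, chromosome 18, 76241580 to 76310963, plus strand), the partner of Smad3, was at 1471 to 1964 in every sample and passed in none of the comparisons, except for maturation in cDC2 when mature replicate 3 was left out (-0.31, limma adjusted p = 0.066). Its maturation value in cDC1 was 0.0 with a 95% interval of -0.25 to 0.26. Smad4 (ENSMUSG00000024515, chromosome 18, 73639009 to 73703780, minus strand), the shared partner of both, ranged only from 1701 to 3651. It rose with maturation by 0.5 in cDC2 (SE 0.18, limma adjusted p = 0.023) and by 0.38 in cDC1 (SE 0.16, limma adjusted p = 0.0546), where the samples overlapped.

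The Smad4 differences were small beside their spread. The cDC1 call was lost without immature replicate 3 (limma adjusted p = 0.195) or mature replicate 1 or 3 (limma adjusted p = 0.116 and 0.281), and the cDC2 call without mature replicate 3 (0.38, limma adjusted p = 0.119). The lower level in thymic than in splenic cDC2 (-0.45, SE 0.18, limma adjusted p = 0.0781) did not hold on lane 8 alone (limma adjusted p = 0.306), nor without splenic replicate 2 or 3 or thymic replicate 1 or 3 (limma adjusted p = 0.138 to 0.223).

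Smad7 (ENSMUSG00000025880, chromosome 18, 75367529 to 75395935, plus strand), the inhibitory SMAD, fell with maturation in both subsets. It went from 1521, 1612, 1183 and 1843 to 914.3, 1170 and 930.7 in thymic cDC1 and from 3140, 2984 and 2676 to 1654, 2067 and 1862 in thymic cDC2, with no overlap in either. The decreases were 0.61 on the log2 scale in cDC1 (log2 fold change -0.61, SE 0.17, limma adjusted p = 0.00462) and 0.66 in cDC2 (log2 fold change -0.66, SE 0.18, limma adjusted p = 0.00539), and both were -0.61 on lane 8 alone. Splenic cDC1 were at 927.5, 1052, 1417 and 963.2, overlapping thymic cDC1 (0.5, SE 0.16, limma adjusted p = 0.0416). This tissue call was lost on lane 8 alone (0.38, limma adjusted p = 0.477) and without splenic replicate 1 or 4 or thymic replicate 2 or 4 (limma adjusted p = 0.109 to 0.146). Splenic cDC2 were at 2417, 2320 and 3085 (0.18, limma adjusted p = 0.553).

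Tgif1 (ENSMUSG00000047407, chromosome 17, 70844205 to 70853546, minus strand), a nuclear corepressor of SMAD-driven genes, rose with maturation in cDC1 from 1353, 1090, 1372 and 1028 to 3525, 4345 and 4206. The 2 groups were far apart (1.74, SE 0.17, limma adjusted p = 2.20e-08), a 3.336-fold difference, and on lane 8 alone the value was 1.8. In cDC2 the 2541, 2520 and 2882 of immature and the 2292, 3113 and 3166 of mature thymic cells overlapped, and the difference was 0.1 with a 95% interval of -0.28 to 0.47.

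Immature thymic cells had less Tgif1 than splenic cells in both subsets. Splenic cDC1 were at 2173, 1622, 1827 and 1399, above all thymic cDC1 samples (-0.53, SE 0.16, limma adjusted p = 0.0278). Splenic cDC2, at 4725, 3797 and 5348, were likewise above all thymic cDC2 samples (-0.79, SE 0.18, limma adjusted p = 0.00319). The cDC1 call was lost on lane 8 alone (-0.47, limma adjusted p = 0.251) and without splenic replicate 1 (-0.42, limma adjusted p = 0.116).

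Between subsets, splenic cDC2 had more Tgif1, Smad7, Tgfbr1, Tgfb1 and Smad4 than splenic cDC1. These were 5 genes higher and 0 lower by limma, against 16% and 13.4% of all genes tested, and 0 were lower at an unadjusted p below 0.05 or in edgeR or DESeq2 too. Tgif1 differed by 1.4 (SE 0.17, limma adjusted p = 1.99e-06) and Smad7 by 1.27 (SE 0.17, limma adjusted p = 8.66e-06), with no overlap. The calls for Tgfb1 (0.64, limma adjusted p = 0.0844), whose samples overlapped, Tgfbr1 (0.71, limma adjusted p = 0.0298) and Smad4 (0.4, limma adjusted p = 0.0842) were each lost under other settings. Tgfb1 was at 0.34 without splenic cDC2 replicate 3 (limma adjusted p = 0.453) and did not pass without replicate 1 of that group or replicate 1, 2 or 4 of splenic cDC1 (limma adjusted p = 0.114 to 0.224). With 1 sample per group and label number Tgfb1 was at 0.53 (limma adjusted p = 0.191). Without splenic cDC2 replicate 2 Tgfbr1 had a limma adjusted p of 0.104. The Smad4 call did not pass without splenic cDC1 replicate 2, 3 or 4 or splenic cDC2 replicate 2 or 3 (limma adjusted p = 0.126 to 0.24). The median was 0.53 over the 10 genes and 0.02 over all genes.

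Immature thymic cDC2 were above immature thymic cDC1 for Tgfbr1, Smad3, Tgif1 and Smad7. These 4 genes were higher and 0 lower by limma, against 15.5% and 10.5% of all genes tested, while 1 was lower at an unadjusted p below 0.05, 0 in edgeR and 1 in DESeq2. The log2 differences were 1.57 for Tgfbr1 (SE 0.23, limma adjusted p = 3.08e-05), 1.45 for Smad3 (SE 0.24, limma adjusted p = 1.24e-04), 1.14 for Tgif1 (SE 0.17, limma adjusted p = 2.92e-05) and 0.94 for Smad7 (SE 0.17, limma adjusted p = 2.70e-04). No sample of these genes overlapped between the subsets. That gene was Tgfb3, at -1.13 (limma adjusted p = 0.133), which passed in DESeq2 (-1.61, adjusted p = 0.0789) and without immature cDC1 replicate 4 (-1.52, limma adjusted p = 0.0306).

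In mature thymic cells the order changed for Smad3 and Tgif1. Mature cDC2 had less Smad3 (-1.23, SE 0.26, limma adjusted p = 0.00163) and Tgif1 (-0.5, SE 0.18, limma adjusted p = 0.0485) and more Smad7 (0.89, SE 0.18, limma adjusted p = 0.00122) and Tgfbr2 (1.4, SE 0.39, limma adjusted p = 0.0137) than mature cDC1. That made 2 higher and 2 lower, against 21% and 9.27% of all genes tested. The Tgfbr2 samples overlapped, and its call was lost without mature cDC1 replicate 1 (0.83, limma adjusted p = 0.104) and in a fit to the 2 groups alone (limma adjusted p = 0.124). The Tgif1 call was lost without mature cDC2 replicate 1 (-0.35, limma adjusted p = 0.239) or mature cDC1 replicate 2 (-0.45, limma adjusted p = 0.144). Without mature cDC2 replicate 3, Tgfb1 passed as higher in cDC2 (0.8, limma adjusted p = 0.0449).

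The difference between the subsets in the response to maturation was tested as an interaction, and 4 genes passed, against 18.5% of all genes tested. Smad3 rose by 2.67 log2 units less in cDC2 (interaction -2.67, SE 0.36, limma adjusted p = 3.97e-05), and for Tgif1, which rose in cDC1 and stood at 0.1 in cDC2, the test also passed (interaction -1.64, SE 0.25, limma adjusted p = 1.49e-04). Tgfbr1 fell in cDC2, against 0.33 in cDC1 (interaction -1.26, SE 0.34, limma adjusted p = 0.018). Tgfbr2 fell less in cDC2 (interaction 1.54, SE 0.54, limma adjusted p = 0.0672), but without mature cDC1 replicate 1 the value was 0.98 (limma adjusted p = 0.184), and on lane 8 alone the limma adjusted p was 0.238. It also missed the threshold without mature cDC2 replicate 1 or 2, immature cDC1 replicate 1 or 2 or any single immature cDC2 replicate (limma adjusted p = 0.102 to 0.193). From lane 8 alone the other interactions were -2.65 for Smad3, -1.73 for Tgif1 and -1.31 for Tgfbr1, all past the threshold.

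For the tissue difference, only Smad3 passed the interaction test, against 6.25% of all genes tested. Its deficit in the thymus was smaller in cDC2 than in cDC1 (interaction 1.68, SE 0.34, limma adjusted p = 0.00469). On lane 8 alone, where splenic cDC2 had 1 library that was assumed to vary like the other groups, the value was 1.2 (limma adjusted p = 0.477). The excess of Tgfbr1 in the thymus was 0.86 larger in cDC2 and did not pass (limma adjusted p = 0.187), but did without splenic cDC1 replicate 3 (1.02, limma adjusted p = 0.0644). Smad4, at -0.54 (limma adjusted p = 0.259), passed without immature thymic cDC1 replicate 3 (-0.68, limma adjusted p = 0.0735), and Tgfbr2 passed in a fit to only the groups compared (-0.78, limma adjusted p = 0.032).

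Ordered by mean log2 value, Smad3 ran from mature thymic cDC1 through splenic cDC1, splenic cDC2, mature thymic cDC2 and immature thymic cDC2 to immature thymic cDC1. Neighbours among the first 3 groups did not differ beyond the spread. Splenic cDC2 were above mature thymic cDC2 (0.75, limma adjusted p = 0.0216), although their samples overlapped. Mature thymic cDC2 were above immature thymic cDC2 only at the threshold, a call lost under most other settings listed above. Immature thymic cDC2 were above immature thymic cDC1. Tgfbr2 split the 4 immature groups, among which no neighbours passed, from the 2 mature groups below them. Mature cDC2 were above mature cDC1, but their samples overlapped and the call was lost without mature cDC1 replicate 1 (limma adjusted p = 0.104). For Tgfb1 the 2 mature groups, which did not differ from each other, lay below the immature groups, with immature thymic cDC1 above mature thymic cDC2 (limma adjusted p = 9.38e-07). Splenic cDC2 lay above the next group, splenic cDC1, but their samples overlapped and the call was lost without splenic cDC2 replicate 3 (limma adjusted p = 0.453). Tgif1 was highest in splenic cDC2 and mature thymic cDC1, and immature thymic cDC2 were above splenic cDC1 (0.61, limma adjusted p = 0.0102). Neighbouring groups did not pass for Smad2 or Smad4 anywhere in the order.

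For Tgfbr1 immature thymic cDC2 stood above all other groups and splenic cDC1, with overlapping samples, below immature thymic cDC1, while neighbours among the 4 groups between did not differ. Smad7 was highest in immature thymic and splenic cDC2, which did not differ from each other, and splenic cDC2 were above mature thymic cDC2 (0.48, limma adjusted p = 0.0358). Its lowest groups were splenic cDC1 and mature thymic cDC1, again without a difference. The Tgfb2 order had 1 step, between mature thymic cDC2 and splenic cDC2 (1.83, limma adjusted p = 0.0799), with both mature groups above it. Tgfb3 had 1 step too, between mature thymic cDC2 and immature thymic cDC1 (1.09, limma adjusted p = 0.0779), with both immature thymic groups below it. The samples at that step overlapped.

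Genes that hold and release latent TGF-β were examined next, 17 in all with 15 tested. With maturation 4 rose and 4 fell in cDC1 (median 0.21) and 6 rose and 4 fell in cDC2 (median 0.26). Over all genes tested 30.4% rose and 33.7% fell in cDC1 and 27.7% rose and 25.5% fell in cDC2, with medians of -0.04 and 0.04, and the maturation counts of this list and the next 4 are to be read against those shares. Itgb8, whose product pairs with that of Itgav to release active TGF-β, was at 0 to 4 reads in immature thymic cDC1 and at 1550, 979.2 and 1056 normalized reads in mature thymic cDC1. In cDC2 it rose from 9.607, 18.75 and 12.46 to 416.1, 522.0 and 431.7 (5.01, SE 0.52, limma adjusted p = 1.12e-07). Itgb8 passed the limit on low values only through the mature samples, so a rise was built into the choice of genes tested. Every mature sample was far above every immature one, and splenic cells held at most 1 read of Itgb8 in any library. Itgav itself did not pass with maturation (0.37, limma adjusted p = 0.152 in cDC1, and -0.08, limma adjusted p = 0.814 in cDC2).

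Nrros, which tethers latent TGF-β on myeloid cells, fell with maturation in cDC1 (-1.2, limma adjusted p = 2.21e-04) and in cDC2 (-1.26, limma adjusted p = 4.06e-04). Lrrc32, which encodes the tether GARP, was highest in immature thymic cDC2 at a mean of 312.1. It was lower in mature thymic cDC2 (-2.3, limma adjusted p = 0.00551) and in splenic cDC2 (thymus against spleen 2.11, limma adjusted p = 0.0229). The latent TGF-β binding protein gene Ltbp3 rose in both subsets (2.16, limma adjusted p = 0.00103, and 2.94, limma adjusted p = 1.37e-04), and Ltbp2 rose in cDC2 (3.35, limma adjusted p = 2.69e-06). The integrin gene Itgb5 rose in cDC1 (2.3, limma adjusted p = 8.38e-06), Ltbp1 differed there by -2.5 (limma adjusted p = 0.0352), and Itgb3 fell in cDC2 (-3.31, limma adjusted p = 8.47e-05). The Ltbp1 samples overlapped, at 0, 22.53 and 75.96 in mature against 54.97 to 76.46 in immature thymic cDC1, and in a check chosen after seeing the data the value was -0.7 without mature replicate 1, the sample at 0 (limma adjusted p = 0.431), and -3.83 without mature replicate 3 (limma adjusted p = 0.00171).

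Between tissues this list had 4 genes higher and 3 lower in thymic cDC1 and 5 higher and 5 lower in thymic cDC2. The shares over all genes tested were 7.72% and 7.7% in cDC1 and 14.9% and 11.6% in cDC2, for this list and the next 4. The membrane protease gene Mmp14 was at a mean of 13.02 in splenic and 1571 in thymic cDC1 (6.94, SE 0.34, limma adjusted p = 1.73e-11). Itgb5 was also higher in thymic cDC1 (1.63, limma adjusted p = 0.00116) and Itgb3 was lower (-2.46, limma adjusted p = 0.00173). Ltbp1 was at 0.4843 to 6.177 in splenic cDC1, but it passed the limit on low values only through thymic cDC1, where it was high. The same holds for Itgb8, Acvr1c and Gdf11, which passed mainly through the mature thymic samples, so for these genes a difference was built into the choice of genes tested. In thymic cDC2 the protease gene Mmp2 was higher, at a mean of 93.4 against 0.305, while Mmp9, at 2.97 against 206.5, Ltbp2 (-3.02, limma adjusted p = 4.09e-05) and the matrix gene Thbs1 (-2.68, limma adjusted p = 0.0126) were lower. Mmp9 was low in splenic cDC1 too, at a mean of 0.9348. It may thus have passed the limit on low values mainly through splenic cDC2, where it was high, and its differences are to be read with that limit.

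Among 15 co-receptors and receptor regulators, 14 tested, maturation raised 4 and lowered 4 in cDC1 (median 0.01) and raised 2 and lowered 3 in cDC2 (median -0.07). The ubiquitin ligase gene Smurf1, which targets receptors and SMADs, rose in both subsets (1.61, limma adjusted p = 7.28e-08, and 1.32, limma adjusted p = 5.01e-06), as did Zfyve9, which presents SMADs to the receptor (1.79, limma adjusted p = 1.14e-06, and 1.87, limma adjusted p = 2.68e-06). The type I receptor gene Acvrl1 fell in both (-2.54, limma adjusted p = 2.69e-09, and -1.47, limma adjusted p = 2.35e-05). Dab2, an adaptor of receptor endocytosis, went from a mean of 8653 to 139.6 in cDC2 (-5.94, SE 0.59, limma adjusted p = 6.09e-08) and from 146.5 to 3.731 in cDC1. The co-receptor gene Tgfbr3 passed in neither subset (limma adjusted p = 0.285 and 0.672), and Eng rose in cDC1 (1.07, limma adjusted p = 0.0217).

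Between tissues 4 genes of this list were higher and 1 was lower in thymic cDC1, and 5 were higher and 1 lower in thymic cDC2. Pmepa1, a target of the pathway that feeds back on it, was at a mean of 133.2 in splenic and 935.3 in thymic cDC1 (2.85, SE 0.24, limma adjusted p = 4.22e-08) and at 14.28 and 553.4 in the corresponding cDC2 (5.22, SE 0.28, limma adjusted p = 7.92e-11). The tissue difference was larger in cDC2 (interaction 2.37, limma adjusted p = 3.74e-04). Zfyve9 was lower in the thymus in both subsets (-2.44, limma adjusted p = 6.63e-08, and -2.08, limma adjusted p = 3.14e-06). Dab2 (4.01, limma adjusted p = 4.37e-05) and Fkbp1a, whose product holds the type I receptor inactive (1.16, limma adjusted p = 2.89e-06), were higher in thymic cDC2. With maturation Pmepa1 did not pass in either subset (-0.04, limma adjusted p = 0.917, and -0.21, limma adjusted p = 0.567).

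Of 13 SMAD corepressors and cofactors, 12 tested, 4 rose and 3 fell with maturation in each subset. Runx1, a DNA-binding partner of SMADs, fell by 3.02 in cDC1 (SE 0.19, limma adjusted p = 2.56e-11) and by 2.86 in cDC2 (SE 0.2, limma adjusted p = 4.35e-10), and Runx3 fell in cDC1 (-1.09, limma adjusted p = 7.55e-04). The corepressor gene Ski also fell in both (-0.95, limma adjusted p = 7.41e-04, and -1.22, limma adjusted p = 1.92e-04), while its relative Skil, with group means of 7585 to 10840, passed in none of the comparisons. Foxh1, a cofactor of the activin and nodal response, was at a mean of 2.335 in immature and 419.8 in mature thymic cDC1, and at 17.63 and 747.8 in thymic cDC2 (5.32, SE 0.66, limma adjusted p = 1.17e-06). Tgif2, the relative of Tgif1, rose in cDC1 (1.8, limma adjusted p = 2.07e-04). It was lower in the thymus than in the spleen in cDC1 (-1.01, limma adjusted p = 0.0503) and cDC2 (-1.74, limma adjusted p = 0.00244). This list had 2 higher and 2 lower in thymic cDC1 and 3 higher and 5 lower in thymic cDC2. Smad6 did not reach the limit on low values and was not tested.

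In the branch of bone morphogenetic proteins and activins, 22 genes with 13 tested, maturation raised 5 and lowered 1 in cDC1 (median 0.24) and raised 6 and lowered 0 in cDC2 (median 0.39). The count of 0 was the same at an unadjusted limma p below 0.05 and in edgeR and DESeq2, here and for the counts of 0 of this list by tissue in cDC1 and between subsets in the spleen and the immature thymic cells. Smad1, a transducer of bone morphogenetic protein signals, rose by 1.51 in cDC1 (SE 0.13, limma adjusted p = 6.20e-09) and 0.86 in cDC2 (SE 0.14, limma adjusted p = 5.12e-05), and the rise was smaller in cDC2 (interaction -0.65, limma adjusted p = 0.033). The receptor gene Acvr1c was at 0 in all immature thymic cDC1 and at a mean of 118.1 in mature ones, and at 0.8928 and 168.3 in thymic cDC2. Gdf11, a ligand, was at 1.056 in immature and 160.0 in mature thymic cDC1. The receptor gene Acvr2b rose in cDC2 (1.48, limma adjusted p = 0.00195). Between tissues 0 genes were higher and 1 lower in thymic cDC1, and 1 was higher and 1 lower in thymic cDC2. These last were Inhba, an activin subunit gene at a mean of 79.36 in thymic and 1.874 in splenic cDC2, and Bmp2 (-2.87, limma adjusted p = 0.00201).

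Of 20 genes known as TGF-β targets in other cells, 18 tested, 7 rose and 6 fell with maturation in each subset, with a median of 0.26 in both. Itgae, which encodes CD103, was at a mean of 16230 in immature and 229.8 in mature thymic cDC1 (-6.31, SE 0.37, limma adjusted p = 1.12e-11), and at 5655 and 60.64 in thymic cDC2 (-6.69, SE 0.39, limma adjusted p = 4.23e-11). Tgfbi, a matrix protein gene named for its induction by TGF-β, fell by 5.83 in cDC1 (SE 0.41, limma adjusted p = 1.64e-10) and by 2.08 in cDC2 (SE 0.44, limma adjusted p = 5.14e-04), and less in cDC2 (interaction 3.75, limma adjusted p = 2.58e-04). In the other direction, Cdkn2b, a cell cycle inhibitor gene, went from 3.016 to 797.7 in cDC1 and from 15.48 to 953.2 in cDC2 (5.86, limma adjusted p = 1.22e-06), and Id2 rose in cDC2 (3.12, limma adjusted p = 2.62e-10).

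Between tissues 6 target genes were higher and 3 lower in thymic cDC1 (median 0.58), and 7 were higher and 1 lower in thymic cDC2 (median 0.66), against medians of 0.0 and 0.02 over all genes. Itgae was higher in the thymus by 3.34 in cDC1 (SE 0.34, limma adjusted p = 6.11e-07) and by 7.92 in cDC2 (SE 0.39, limma adjusted p = 4.35e-11), where splenic cDC2 had a mean of 23.72. The tissue difference was larger in cDC2 (interaction 4.58, limma adjusted p = 1.12e-05). The receptor kinase gene Axl was higher in both thymic subsets (1.8, limma adjusted p = 0.00216, and 2.38, limma adjusted p = 4.59e-04), Cdkn1a in thymic cDC1 (2.31, limma adjusted p = 1.34e-07) and Id1 in thymic cDC2 (2.29, limma adjusted p = 0.00609).

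**Figure D4:**
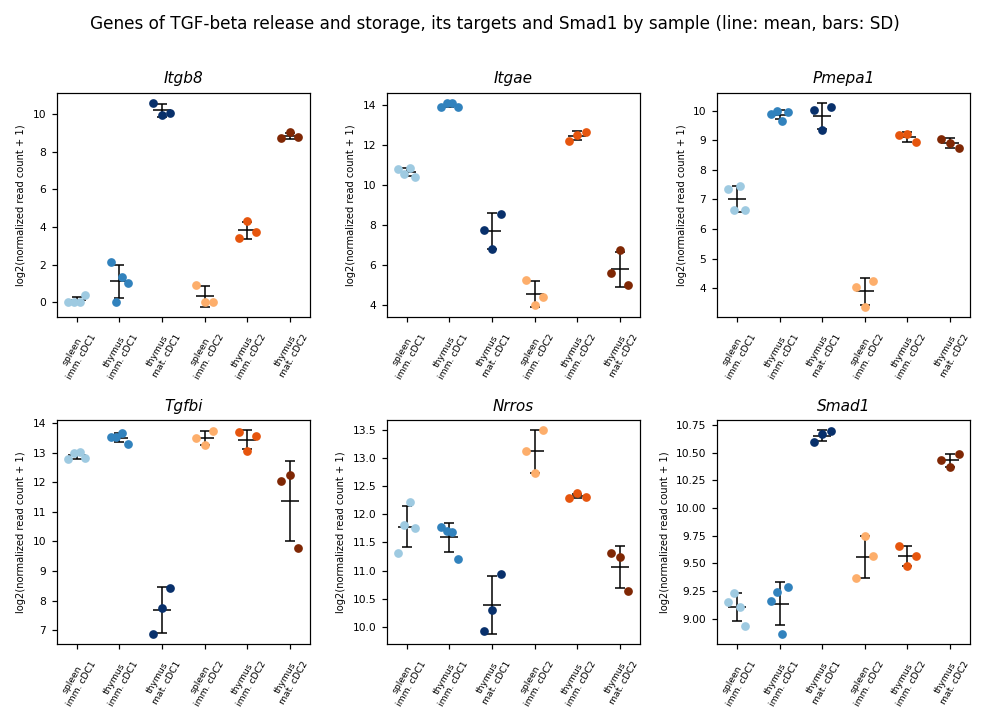
Log2(normalized read count + 1) of Itgb8, Itgae, Pmepa1, Tgfbi, Nrros and Smad1 in every sample, 1 point each, with the mean as a line and the SD as bars, for the 6 groups. Itgb8 has means of 1195 and 456.6 in the mature groups and at most 13.61 in the others, and Pmepa1 has its lowest means, 14.28 and 133.2, in the splenic groups.

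The genes of these lists were also compared between subsets. Over all genes tested 16% were higher and 13.4% lower in cDC2 in the spleen, 15.5% and 10.5% in immature and 21% and 9.27% in mature thymic cells, so all genes leaned to cDC2 as well. In the spleen 7 latent-storage genes were higher and 1 lower, 6 and 3 co-receptors, 6 and 1 cofactors, 5 and 0 genes of the activin branch, and 8 and 3 targets. In immature thymic cells these counts were 7 and 2, 6 and 3, 4 and 1, 5 and 0, and 9 and 3, and in mature thymic cells 5 and 2, 5 and 2, 3 and 1, 5 and 1, and 6 and 3. Axl was among the clearest, at 98.1 in splenic cDC1 and 1499 in splenic cDC2 (4.0, limma adjusted p = 1.99e-07), and at 315.4 and 7561 in the immature thymic subsets (4.58, limma adjusted p = 3.62e-08). The repressor gene Bhlhe40 was higher in cDC2 (3.35, limma adjusted p = 1.98e-09, and 3.45, limma adjusted p = 1.67e-09) and Acvrl1 was lower (-2.33, limma adjusted p = 5.07e-08, and -2.27, limma adjusted p = 8.40e-08).

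Itgae and Pmepa1 were lower in cDC2 than in cDC1 in the spleen (-6.11, limma adjusted p = 8.75e-11, and -3.13, limma adjusted p = 1.15e-08). Id2 was lower in cDC2 of the spleen (-3.41, limma adjusted p = 4.66e-11) and of the immature thymus (-2.12, limma adjusted p = 6.69e-08). In mature thymic cells Tgfbi was higher in cDC2 (3.68, limma adjusted p = 3.82e-06), and so were Id3 (2.92, limma adjusted p = 0.00136), Eng (1.41, limma adjusted p = 0.0169) and Runx1 (1.95, limma adjusted p = 6.64e-07), while Itgb8 was lower (-1.36, limma adjusted p = 0.0632).

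Within the storage list, Ltbp2 was lower in cDC2 of the spleen (-3.37, limma adjusted p = 2.38e-06) and of the immature thymus (-4.94, limma adjusted p = 1.41e-08), and Ltbp1 was at a mean of 68.45 in immature thymic cDC1 and 0.6696 in immature thymic cDC2. Thbs1 was higher in cDC2 at both sites (3.79, limma adjusted p = 2.67e-04, and 3.51, limma adjusted p = 6.24e-04). Mmp14 was higher in splenic cDC2 (5.3, limma adjusted p = 7.40e-10), and Mmp9 was at 206.5 there and at 0.9348 in splenic cDC1, with the limit given above for Mmp9. Itgb3 was higher in immature (4.09, limma adjusted p = 7.49e-06) and in mature thymic cDC2 (2.36, limma adjusted p = 0.0055), as were Ltbp3 (1.82, limma adjusted p = 0.0184) and Mmp2 (5.35, limma adjusted p = 3.61e-04) in mature thymic cDC2.

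Dab2 was higher in cDC2 in the spleen (2.15, limma adjusted p = 0.00579) and in immature thymic cells (5.89, limma adjusted p = 7.31e-08), and so was Eng (1.36, limma adjusted p = 0.0118, and 2.27, limma adjusted p = 1.39e-04). Of the cofactors, Tgif2 was higher in cDC2 of the spleen (2.22, limma adjusted p = 7.03e-05) and of the immature thymus (1.49, limma adjusted p = 0.00374), Runx3 in splenic cDC2 (1.29, limma adjusted p = 4.68e-04), and Runx1 (1.8, limma adjusted p = 3.21e-07) and Ski (1.05, limma adjusted p = 9.73e-04) in immature thymic cDC2. The activin receptor gene Acvr2a was higher in cDC2 in all 3 settings, by 1.47 in the spleen, 1.26 in immature thymic and 1.14 in mature thymic cells (limma adjusted p = 0.0011, 0.0047 and 0.016). Bmp2 was higher in splenic cDC2 (2.94, limma adjusted p = 5.71e-04) and Inhba was at a mean of 79.36 in immature thymic cDC2 and 6.316 in immature thymic cDC1. Gdf11 was lower in mature thymic cDC2 (-1.81, limma adjusted p = 0.0679), and Bambi, which encodes a decoy receptor, was higher there (1.37, limma adjusted p = 8.75e-04).

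Over the 20 samples, the genes whose log2 values ran most like those of Tgfbr2 were Tcirg1 (Pearson r = 0.983), AB124611 (0.981) and Tle1 (0.979). For Tgfb1 they were Abr (0.991), Pnpla7 (0.985) and Bin2 (0.982). For the low Tgfb2 they were Gm23685 (0.866), 2410089E03Rik (0.86) and Ube4b (0.852). The points share groups and lanes, and these values describe likeness over the same 6 groups.

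Transcripts of other cell types moved with some of the groups. For macrophages 6 of 7 markers were found. Their sum was 865 to 1183 in immature and 5854 to 8465 in mature thymic cDC1, of which Vcam1 made up a mean of 6740 while C1qa was at 53.3. In thymic cDC2 it was 5452 to 9210 in immature cells and 16870, 18320 and 5205 in mature replicates 1, 2 and 3. Replicate 3 of mature cDC2 was thus lowest in that sum and also the lowest of its group for Tgfb1, Tgfbr1, Tgfbr2 and Smad3. It was the highest of its group for Tgfb2, Smad2, Smad4 and Tgif1, and lay between the others for Tgfb3 and Smad7.

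The summed T cell and thymocyte markers were 165.7 to 236.5 in immature and 1319 to 2437 in mature thymic cDC1, and 170.8 to 286.6 in immature and 747 to 1210 in mature thymic cDC2. Splenic samples held 28.11 to 83.83. Cd3e itself averaged 52.2 in mature and 7.5 in immature thymic cDC1. Epithelial markers were highest in immature thymic cDC2 at 3484 to 3808, nearly all of it Epcam, with Krt5 at 32.5 and Foxn1 at 5.3. B cell markers were at 566.1 to 984.1 in splenic cDC1 and 599.7 to 636.9 in splenic cDC2, against 106.4 to 400.8 in the thymus. Fibroblast and endothelial markers were at 276.8 to 381.6 in splenic, 2129 to 2404 in immature thymic and 2176 to 2299 in mature thymic cDC2, nearly all of it Kdr, and at 167.4 to 205.0, 447.8 to 660.9 and 798.9 to 1960 in the corresponding cDC1.

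Markers of plasmacytoid dendritic cells were at 207.7 to 320.5 in splenic cDC2, 1417 to 1912 in immature thymic and 377 to 618.1 in mature thymic cDC2. In cDC1 they were at 1213 to 1454 in splenic, 1233 to 1669 in immature thymic and 230.5 to 396.3 in mature thymic cells. The ranges did not overlap between tissues in cDC2 or between mature and immature thymic cells of either subset. NK cell markers were at 99.4 to 180.3 in splenic cDC2, mostly Gzma, and at or below 9.095 in all other samples, and the neutrophil and monocyte sum was at 25.33 to 362.0. The erythroid and platelet sums stayed at or below 70.19 and 81.27, with Gp1bb at 0. The part of these transcripts in the TGF-β results was not tested.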

How the data were processed

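RNA from sorted cDCs was sequenced in 21 libraries (TruSeq Stranded mRNA). Per the study's methods the authors used Cutadapt for trimming and STAR for alignment to mm10 (version 2.6 in the submitters' processing notes), counted Ensembl genes with HTSeq-count and normalized with DESeq2 (1.24.0 in those notes). The deposited values are a signal, the read count divided by a size factor. Whole reads were recovered for 100% of values within 0.001.

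Groups came from the sample labels. Values were log2(value + 1) for genes at 10 or more in at least 3 samples, fitted as 6 group means with limma 3.58.1 (trend, R 4.3.3) with Benjamini-Hochberg adjustment over 14970 genes. A gene was changed at an adjusted p below 0.1. On recovered reads edgeR 4.0.16 called 9480 genes for cDC1 maturation and 8030 for cDC2 maturation, against 9601 and 7959 by limma, and DESeq2 1.42.0 was a further alternative. The other alternatives were another pseudocount, no limit on low values, only the groups compared, a lane term, lane 8 alone, all libraries apart, 1 sample per label number, a block by label number, a 2-fold limit, and each sample left out. The scripts were tested on simulated data.

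The 10 genes and the 5 pathway lists were chosen with earlier results of these data known. Besides fixed genes, the text names up to 4 genes per list with the largest change past the threshold and 2-fold with a mean of at least 50. Some genes that this rule or the marker lists name are not reported here. Exon lengths and positions came from GENCODE M21, which held 37607 of the 37734 identifiers. The labels do not say that replicates came from separate sorts, so p-values measure the spread between these samples, which may be technical.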

Additional observations from a re-analysis of the deposited data

Results flagged for a closer look

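The effect of maturation differed between cDC2 and cDC1 by an interaction test for 4 of the 10 genes, -2.67 for Smad3, -1.64 for Tgif1, -1.26 for Tgfbr1 and 1.54 for Tgfbr2 on the log2 scale. The Tgfbr2 value rests in part on mature cDC1 replicate 1, whose Tgfbr2 count of 62.68 lies below the 206.2 and 202.3 of its group, and it was 0.98 without that sample (limma adjusted p = 0.184).

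The difference between thymus and spleen was 1.68 higher in cDC2 than in cDC1 for Smad3 by the same kind of test, and 1.2 on lane 8 alone (limma adjusted p = 0.477). In both groups of 4 samples no single sample stood apart by Dixon's test, which was run 20 times, for the 10 genes in these groups. The smaller groups were not tested.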

How the results depend on the processing

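Of the gene values past the threshold, 433 kept direction and call under alternatives that left out no sample and 36 lost the call; with 1 sample left out, 280 kept both and 59 lost the call. No called value changed sign. Values under the threshold that did were Smad2 for maturation in cDC1 (-0.01 in edgeR, -0.01 with 1 sample per number, -0.02 with a random replicate block, -0.07 to 0.07 with 1 sample left out) and for tissue in cDC1 (0.01 on lane 8), Smad7 for tissue in cDC2 (-0.13 on lane 8) and for the maturation interaction (0.0 in edgeR, -0.15 to 0.07 with 1 sample left out). In splenic cDC2 against cDC1 they were Tgfb2 (-0.08 on lane 8), Tgfb3 (0.06 with all libraries apart, 0.01 with a lane term, 0.5 on lane 8, -0.24 to 0.14 with 1 sample left out) and Smad3 (0.21 on lane 8, -0.42 to 0.07 with 1 sample left out). With 1 sample left out the ranges were -1.4 to 0.44 for Tgfb2 by tissue in cDC2, -0.01 to 0.18 for Tgfb1 and -0.08 to 1.76 for Tgfb2 in immature thymic cDC2 against cDC1, -0.16 to 0.04 for Smad2 and -0.18 to 0.14 for Smad4 in mature thymic cDC2 against cDC1, -0.04 to 0.28 for Smad4 in the maturation interaction and -0.5 to 1.34 for Tgfb2 in the tissue interaction.

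The number of changed genes was most open for tissue in cDC1, where 5 became 3 with no limit on low values, with only the groups compared and with the random replicate block, and 2 on lane 8 and with the 2-fold limit. Without 1 sample it was 2 to 5, lower without any single sample except thymic replicate 3. A 2-fold limit gave 4 of 8 for maturation in cDC2, 4 of 7 for tissue in cDC2, 2 of 5 in the spleen and 2 of 4 in mature cells. Splenic subsets gave 3 with no limit on low values, 2 on lane 8 and 3 to 4 without 1 sample (3 without cDC1 replicate 2 or 4 or cDC2 replicate 2 or 3). The tissue interaction gave 2 with only the groups compared, 0 on lane 8 and 1 to 2 without 1 sample (2 without splenic cDC1 replicate 3 or immature thymic cDC1 replicate 3). Without 1 sample the counts were 7 to 9 for maturation in cDC1, 6 to 8 in cDC2, 4 to 6 for tissue in cDC2 (4 without thymic or splenic replicate 3), 4 to 5 and 3 to 5 between immature and mature thymic subsets, and 3 to 4 for the maturation interaction. The cause of these shifts was not tested.

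In the spleen and in immature thymic cells, cDC1 and cDC2 shared label numbers. Samples with the same label number did not deviate together in every pair (correlations of -0.15 to 0.461), so the numbers were not taken as pairs. Pairs of samples with unlike numbers had correlations of -0.492 to 0.314, so the highest value was that of a same-numbered pair. A pairing in part of the samples thus remains possible. A random replicate block had a consensus correlation of 0.155 and left the maturation count at 8 in cDC1 and moved it from 8 to 7 in cDC2. As a fixed replicate block the number gave 6 genes between the splenic subsets, with Tgfbr2 past the threshold (0.61, limma adjusted p = 0.0033). With 3 or 4 samples a group, counts near 10 limit what can be said of Tgfb2 and Tgfb3.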
